A study of Mus musculus with 2 samples.

Results

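Mir103-1, Mir103-2 and Mir107 are 3 mouse microRNA genes that carry 1 seed family and lie in introns of the pantothenate kinase genes Pank3, Pank2 and Pank1. They were taken by gene symbol in GENCODE release M21 and make up 3 of the 2202 microRNA genes counted. Small RNA was sequenced from hippocampus of female mice aged 14 days, strain B6CASTF1/J, which is the first-generation cross of C57BL/6J and CAST/EiJ. The labels put both libraries in 1 group, named as biological replicate 2 and biological replicate 1, and each library is labelled with 3 females, so it stands for a pool. No treatment or allele is labelled. The tissue label speaks of a layer of the hippocampus without naming it. The design holds no pair of conditions, and the 2 libraries were compared only to describe their spread. The 3 genes were selected on their shared seed and hosts, with their counts and their ratio between the libraries already known, so those values are descriptions and no p-value is given.

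Gene counts on the sense strand summed to 2852269 in replicate 2 and 4764797 in replicate 1. Levels are in CPM, the sense count of a gene scaled to a library total of 1000000 over all genes. A count of 0 allowed up to 1.05 CPM in replicate 2 and 0.630 CPM in replicate 1, taken as 3 counts. Of all 2202 genes 409 reached 10 counts in each library. Of the neuron-enriched microRNA genes 11 of 14 did, while Mir124a-2, Mir124a-3 and Mir9-2 did not. The list summed to 26046 CPM in replicate 2 and 25565 CPM in replicate 1, but its genes did not all differ in the same direction. In that order of libraries, Mir138-1 stood at 7155 and 2760 CPM and Mir128-1 at 2540 and 7405 CPM. Mir124a-1 was low in both, at 6.31 and 2.10 CPM. Liver Mir122 stood at 25.6 and 41.1 CPM in these libraries. Muscle genes summed to 34.4 and 74.3 CPM, with 1 of 5 detected and with Mir1a-1, Mir133a-1 and Mir133a-2 at 0 counts. Reads that match more than 1 gene are not in these counts. A low or 0 count of a gene with numbered copies therefore does not show absence.

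A microRNA gene is transcribed as a longer RNA that folds into a hairpin, from which Drosha and Dicer cut a short duplex with a 5p and a 3p strand. The strand kept by an Argonaute protein pairs with messenger RNAs mostly through its seed, bases 2 to 8, and lowers their stability or translation. The miR-103 and miR-107 family is known for its role in insulin signalling of mouse liver and fat, and its described targets in mammals include Dicer and the neuronal messenger RNAs of BACE1 and CDK5R1. The host genes encode pantothenate kinases, which start coenzyme A synthesis from vitamin B5.

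The mature strands are shown first, since their near identity decides which gene a read can be given to. All 6 strands of the 3 genes are in RefSeq on GRCm38.p6, and capitals mark the seed. The 3p strands are as follows.
mmu-miR-103-3p: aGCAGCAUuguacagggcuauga
mmu-miR-107-3p: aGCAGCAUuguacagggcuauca
The miR-103 3p strand is encoded at chr11:35782447-35782469 on the plus strand in Mir103-1 and at chr2:131288103-131288125 on the plus strand in Mir103-2, and the 2 copies had 0 differences over 23 bases. The miR-107 3p strand lies at chr19:34820700-34820722 on the minus strand. It differed from miR-103-3p by 1 substitution, G22C, counted from 1 at the 5′ end of the strand. Among all mature strands in the RefSeq table the seed GCAGCAU occurred in these 3 genes and in no other.

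The 5p strands also share 1 seed, GCUUCUU, which was carried by the same 3 genes and no other in the table. Each gene has its own 5p sequence.
mmu-miR-103-1-5p: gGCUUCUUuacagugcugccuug
mmu-miR-103-2-5p: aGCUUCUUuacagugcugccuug
mmu-miR-107-5p: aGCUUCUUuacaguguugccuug
They lie at chr11:35782410-35782432, chr2:131288066-131288088 and chr19:34820737-34820759, on the strands of their genes. From miR-103-2-5p, miR-103-1-5p differed by A1G and miR-107-5p by C16U. Thus the 2 genes with identical 3p strands differ at the first base of the 5p strand, outside the seed.

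The hairpins show how far the likeness runs beyond the mature strands, and capitals here mark the 5p and then the 3p strand.
Mir103-1: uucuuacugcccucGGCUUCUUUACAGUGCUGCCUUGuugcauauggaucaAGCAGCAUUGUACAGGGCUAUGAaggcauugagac
Mir103-2: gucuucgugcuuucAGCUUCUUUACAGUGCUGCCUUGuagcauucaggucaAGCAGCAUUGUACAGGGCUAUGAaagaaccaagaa
Mir107: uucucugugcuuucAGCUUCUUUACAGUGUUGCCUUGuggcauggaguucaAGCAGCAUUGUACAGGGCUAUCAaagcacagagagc
Mir103-2 and Mir103-1 were identical at 69 of 86 aligned bases (80.2%). Mir107 was identical to Mir103-1 in 70 of 87 aligned columns (80.5%) and to Mir103-2 in 73 of 87 (83.9%). In each hairpin the 5p strand spans bases 15 to 37 and the 3p strand bases 52 to 74. The differences lay mostly outside both strands, in the loop and at the hairpin ends. The longest run shared by both Mir103 genes had 27 bases, at bases 49 to 75 of each hairpin, and it holds the whole 3p strand.
shared run: ucaagcagcauuguacagggcuaugaa
Mir107 shared 24 bases with each Mir103 gene. With any other of the 2202 precursors the longest shared run was 13 bases for Mir103-1, 12 for Mir103-2 and 12 for Mir107.

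**Figure D1:**
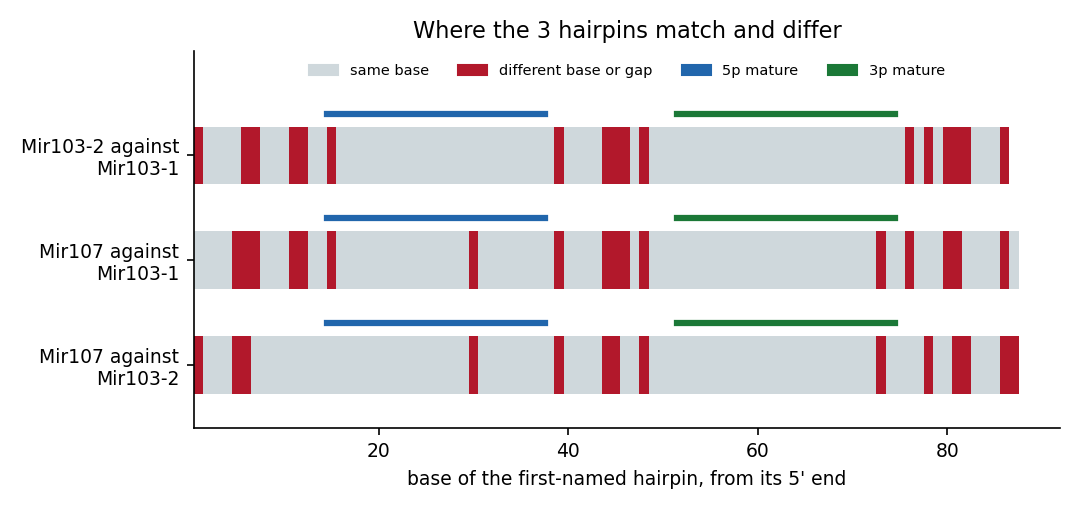
Base-by-base comparison of the 3 hairpins, with the base of the first-named hairpin from its 5′ end on the x axis and 1 row per pair of hairpins. Grey marks the same base, red a different base or a gap, and the blue and green lines the 5p and 3p strands. The 3p strand holds no red base between Mir103-2 and Mir103-1, and 1 between Mir107 and each Mir103 gene.

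The length at which a read can be told apart was computed by exact matching against all 2202 precursors. A read that starts at the first base of the 3p strand matched Mir107 alone from 22 bases on. From the same start, Mir103-1 and Mir103-2 could be told apart from 25 bases on, beyond the 23 bases of the mature strand. From the first base of the 5p strand the limit was 10 bases for Mir103-1, and 16 bases for Mir103-2 and for Mir107. A full-length miR-103-3p read thus matches 2 genes, while a full-length read of the other strands matches 1. A 3p read from the same start with fewer than 22 bases matches all 3 genes. The rest of the genome was not searched. Only sequences of the reference assembly were used, so CAST/EiJ alleles were not checked. Multi-mapping reads are held on a line of their own, so counts of Mir103-1 and Mir103-2 are not a measure of all miR-103-3p. Counts of Mir107 can likewise lack short 3p reads. How many mismatches the alignment allowed is not given in the sources used here, and the counts do not separate 5p from 3p reads.

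All 3 genes lie on the strand of their host and inside its introns. Mir103-1 (ENSMUSG00000065553.1) occupies chr11:35782396-35782481, plus strand, in intron 5 of 6 of Pank3. This intron has 1740 bases, with 688 before the hairpin and 966 after it. Mir103-2 (ENSMUSG00000065563.1) occupies chr2:131288052-131288137, plus strand, in intron 5 of 6 of Pank2, which has 5801 bases with 454 before the hairpin. Mir107 (ENSMUSG00000065594.1) occupies chr19:34820687-34820773, minus strand, in intron 5 of 6 of Pank1, which has 7282 bases with 326 before the hairpin. Introns are numbered in the principal transcript that the annotation marks for each host, so the position in the host is the same in all 3. No exon overlapped a hairpin in any of the 1, 8 and 4 annotated transcripts of Pank3, Pank2 and Pank1, and no other annotated gene overlapped one. Messenger RNA of the hosts was not measured.

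**Figure D2:**
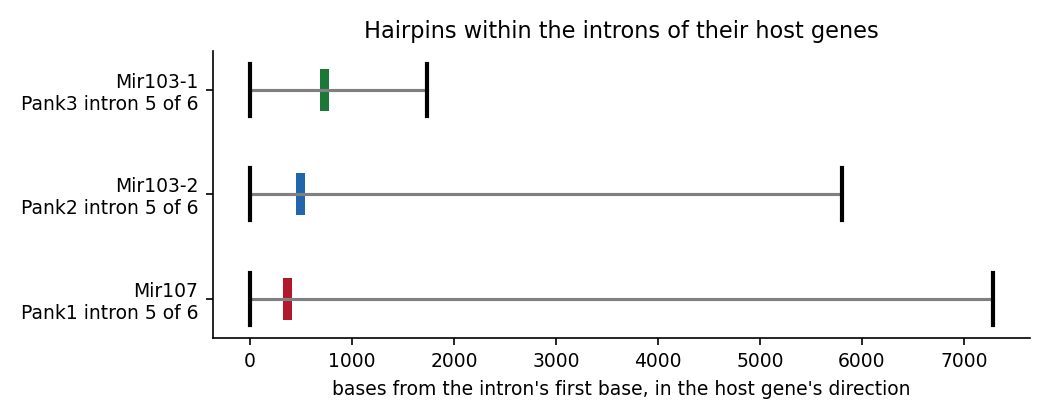
The host introns drawn to scale, with the distance in bases from the first base of the intron on the x axis and 1 row per gene. Black ticks are the intron ends and coloured blocks the hairpins. Mir107 and Mir103-2 sit near the start of long introns, with 326 and 454 bases before them, and Mir103-1 lies 688 bases into the shortest of the 3.

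Nearly all reads given to the family were given to Mir107. Mir107 had 11924 counts in replicate 2 and 4341 in replicate 1, or 4181 CPM (exact Poisson 95% interval 4106 to 4256) and 911 CPM (884 to 939). Its mean level was 2546 ± 2312 CPM (SD, n = 2), which ranked 61 among the 2202 genes. The libraries placed it at rank 40 in replicate 2 and rank 112 in replicate 1, so its place depends on the library. The intervals cover counting error only, since amplified reads without molecular identifiers are not independent molecules.

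Mir103-2, a source of miR-103-3p, was counted far less often. It had 164 counts in replicate 2 and 71 in replicate 1, or 57.5 CPM (49.0 to 67.0) and 14.9 CPM (11.6 to 18.8). The mean was 36.2 ± 30.1 CPM (SD, n = 2) at rank 257.

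Mir103-1, the other source of the same 3p strand, stood near the limit of detection. It had 15 counts in replicate 2 and 9 in replicate 1, or 5.26 CPM (2.94 to 8.67) and 1.89 CPM (0.864 to 3.59). The mean was 3.57 ± 2.38 CPM (SD, n = 2) at rank 412. It thus missed the minimum of 10 counts in both libraries that the other two genes passed. The hairpins have 86, 86 and 87 bases, so the order of the 3 levels was the same per length, at 4.16, 42.1 and 2926 CPM per 100 bases for Mir103-1, Mir103-2 and Mir107. The order held in each library, with counting intervals that do not overlap between the genes.

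**Figure D3:**
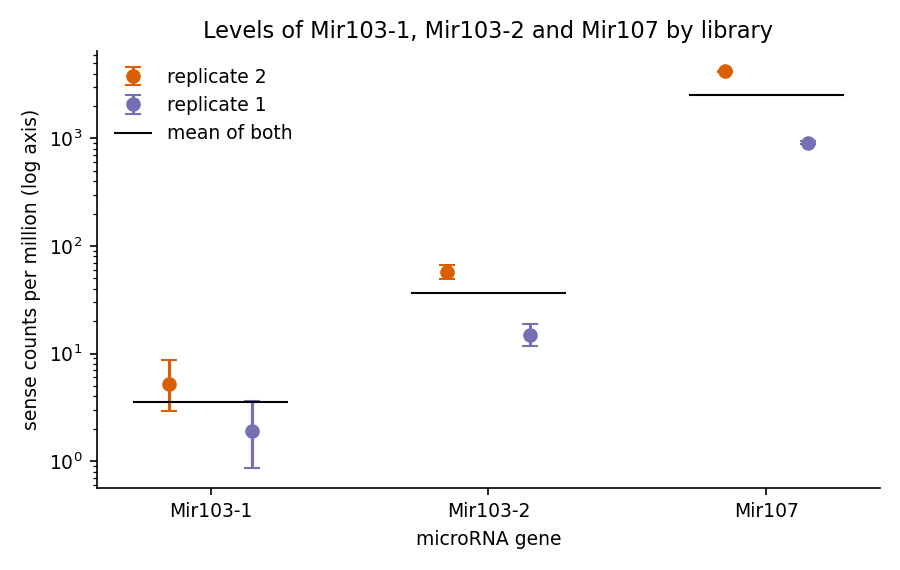
Levels of the 3 genes in CPM, on a log axis, with replicate 2 left of replicate 1. Points are single libraries with exact Poisson 95% intervals and black lines are the means of both libraries. Each gene is higher in replicate 2, and the genes lie about an order of magnitude or more apart, from 3.57 CPM for Mir103-1 to 2546 CPM for Mir107.

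The shares of the 3 genes within the family had counting intervals that overlapped between the libraries, unlike the level of the family. Mir107 held 98.5% of the family counts in replicate 2 (exact binomial 95% interval 98.3 to 98.7) and 98.2% in replicate 1 (97.8 to 98.6), a mean of 98.4% ± 0.234 (SD, n = 2). Mir103-2 held 1.36% (1.16 to 1.58) in replicate 2 and 1.61% (1.26 to 2.02) in replicate 1. Mir103-1 held 0.124% (0.0694 to 0.204) and 0.204% (0.0931 to 0.386) of the family in these libraries. There were 72.7 counts of Mir107 per count of Mir103-2 in replicate 2 (62.3 to 85.3) and 61.1 in replicate 1 (48.4 to 78.4). Counts of Mir103-2 exceeded those of Mir103-1 by 10.9 times (6.44 to 20.0) in replicate 2 and 7.89 times (3.93 to 18.0) in replicate 1. The intervals of each of these quantities overlap between the libraries.

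The family as a whole held 12103 sense counts in replicate 2 and 4421 in replicate 1, which is 0.424% (0.417 to 0.432) and 0.0928% (0.0901 to 0.0956) of all sense counts. The mean share was 0.259% ± 0.234 (SD, n = 2). The multi-mapping line held 2911660 reads in replicate 2 and 5381960 in replicate 1, or 241 and 1217 times the family counts. How much of that line is miR-103-3p was not measured.

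All 3 genes were higher in replicate 2. Ratios are replicate 2 over replicate 1 after TMM scaling in edgeR, for the 450 genes whose counts in both libraries summed to 20 or more, as all 3 members did. On the log2 scale, Mir107 had a ratio of 2.32 (exact 95% counting interval 2.27 to 2.37). Mir103-2 had 2.07 (1.66 to 2.49). Mir103-1 had 1.60 (0.31 to 2.97), a wide range that reflects 24 counts in all. With total counts as library sizes every log2 ratio was lower by 0.12, which gives folds in CPM of 4.59 for Mir107, 3.86 for Mir103-2 and 2.78 for Mir103-1. Thinning replicate 1 to the depth of replicate 2, in 1 random draw, left Mir103-1 with 2 counts there and a log2 ratio of 3.05. Other draws would leave other counts, so the size of its ratio is poorly fixed.

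A ratio over 2-fold in either direction was found in 22% of the 450 genes, and one over 2-fold higher in replicate 2 in 10.7%. The median log2 ratio of all 450 genes was 0.01 and their SD was 0.99. The 3 members were 3 of the 48 genes over 2-fold higher. Of the 450 genes 7 had a higher ratio than Mir107, 9 a higher one than Mir103-2 and 17 a higher one than Mir103-1. Among the 173 genes that averaged 1000 counts or more, Mir543 was the 1 gene with a higher ratio than Mir107. Each pool has 1 library, so a difference between the pools and one in library preparation cannot be told apart, nor can fewer cells of a type and less RNA per cell.

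**Figure D4:**
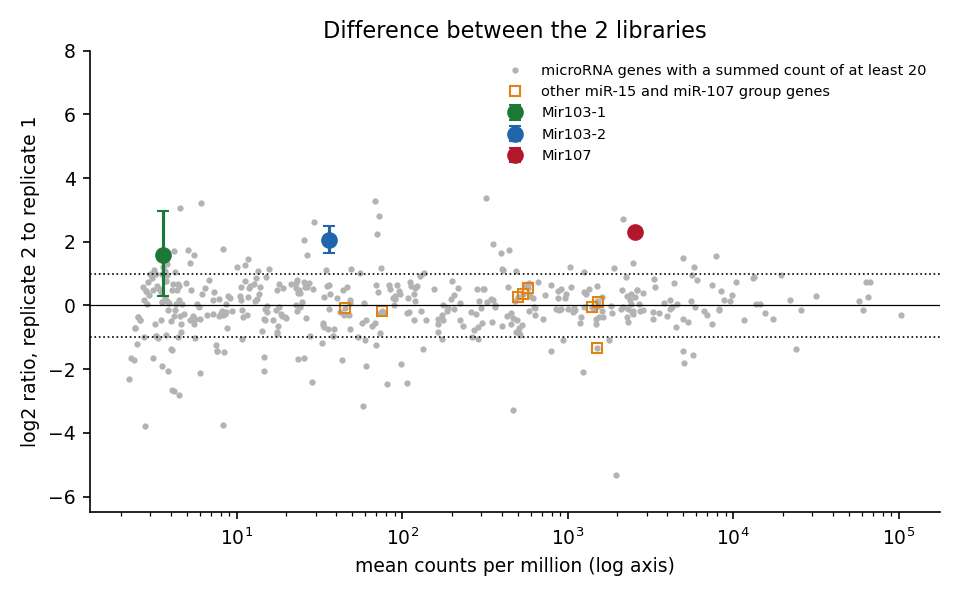
The log2 ratio of replicate 2 to replicate 1 against the mean level in CPM on a log axis, for the 450 microRNA genes whose counts summed to 20 or more. Coloured points are the 3 genes with exact 95% counting intervals, open squares the other detected genes of the wider miR-15 and miR-107 group, and dotted lines mark 2-fold. The 3 genes lie above the upper dotted line, at 1.60, 2.07 and 2.32, while no open square does.

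Summed levels of marker lists of other cells also differed between the libraries, and in the oligodendrocyte and red blood cell lists the genes did not all differ in one direction. The oligodendrocyte list, with 3 of 4 genes detected, summed to 3198 CPM in replicate 2 and 1929 CPM in replicate 1. Mir219a-2 carried this difference at 2583 and 1247 CPM, whereas Mir338 stood at 590 and 664 CPM, and Mir219b had 0 counts in replicate 2 and 3 in replicate 1. Red blood cell genes, 3 of 3 detected, summed to 722 and 290 CPM. This sum was mostly Mir451a, at 663 CPM in replicate 2 and 217 CPM in replicate 1, whereas Mir144 stood at 37.5 and 47.2 CPM and Mir486 at 20.7 and 25.4 CPM. Choroid plexus and ciliated cell genes went the other way, at 1189 CPM in replicate 2 and 3951 CPM in replicate 1, with 4 of 7 detected and Mir449b at 0. Microglial and immune genes, 5 of 5 detected, summed to 1519 and 1819 CPM. The part of these cells in the ratios of Mir103 and Mir107 was not tested.

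The miR-15 and miR-107 group is the wider set of microRNAs that share the bases AGCAGC near the 5′ end with miR-103 and miR-107, and its members are known for targets in the cell cycle and in metabolism. The strands of the other members that carry these bases are shown with them in capitals.
mmu-miR-15a-5p (chr14:61632075-61632096, minus strand): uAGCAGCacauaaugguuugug
mmu-miR-15b-5p (chr3:69009775-69009796, plus strand): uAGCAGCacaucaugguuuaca
mmu-miR-16-5p (chr14:61631936-61631957, minus strand, and chr3:69009918-69009939, plus strand): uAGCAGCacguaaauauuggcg
mmu-miR-195a-5p (chr11:70235062-70235082, plus strand): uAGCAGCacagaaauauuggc
mmu-miR-195b (chr2:56785825-56785846, plus strand): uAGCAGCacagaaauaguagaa
mmu-miR-322-5p (chrX:53054306-53054327, minus strand): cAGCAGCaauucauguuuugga
mmu-miR-497a-5p (chr11:70234730-70234751, plus strand): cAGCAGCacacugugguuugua
mmu-miR-503-5p (chrX:53054027-53054049, minus strand): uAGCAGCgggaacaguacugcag
In these strands the shared bases begin at base 2, against base 1 in miR-103-3p and miR-107-3p, so the seed is shifted by 1 base and reads AGCAGCA or, in miR-503-5p, AGCAGCG. Bases AGCAGC within the first 8 bases were found in 13 of 1674 distinct mature strands in RefSeq (0.777%). These include miR-6342, miR-6353 and miR-6419, which were not listed with the group.

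Of the 10 other genes of the group list in the tables, 8 reached 10 counts in each library, beside 409 of all 2202 genes. Mir195b had 0 and 2 counts. Mir497b, listed with the group by name, lies opposite Mir497, does not carry the shared bases and had 0 counts. Mir107 had a higher mean level than each of the 8. A full-length miR-16-5p read matches both Mir16-1 and Mir16-2, so the counts of these genes are not a measure of all miR-16-5p. Mir322 stood at 1524 CPM in replicate 2 and 1522 CPM in replicate 1, Mir195a at 797 and 2194 CPM, and Mir497 at 1324 and 1479 CPM. In replicate 2 Mir107 lay above all 3 of these, and in replicate 1 it lay below all 3. Mir15b stood at 661 and 495 CPM, Mir15a at 584 and 491 CPM and Mir16-1 at 532 and 478 CPM. Mir16-2 stood at 68.4 and 83.1 CPM and Mir503 at 42.4 and 48.3 CPM. Mir103-2, at 57.5 and 14.9 CPM, lay below Mir16-2 in both libraries, and above Mir503 in replicate 2 and below it in replicate 1.

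The log2 ratios of the 8 genes between the libraries lay from -1.34 to 0.54, against 1.60 to 2.32 for the Pank-hosted genes, a difference that was not tested. None was over 2-fold higher in replicate 2 and 1, Mir195a, was over 2-fold lower, with a log2 ratio of -1.34 (-1.41 to -1.27). In all 450 genes 10.7% were over 2-fold higher and 11.3% over 2-fold lower. Mir15b was the highest at 0.54. The median of the 8 was 0.04, beside 0.01 over all 450 genes. The summed level of the group without the Pank-hosted genes was 5533 CPM in replicate 2 and 6791 CPM in replicate 1. Mir103-1, Mir103-2 and Mir107 together summed to 4243 and 928 CPM, and neither sum holds reads that match more than 1 gene.

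**Figure D5:**
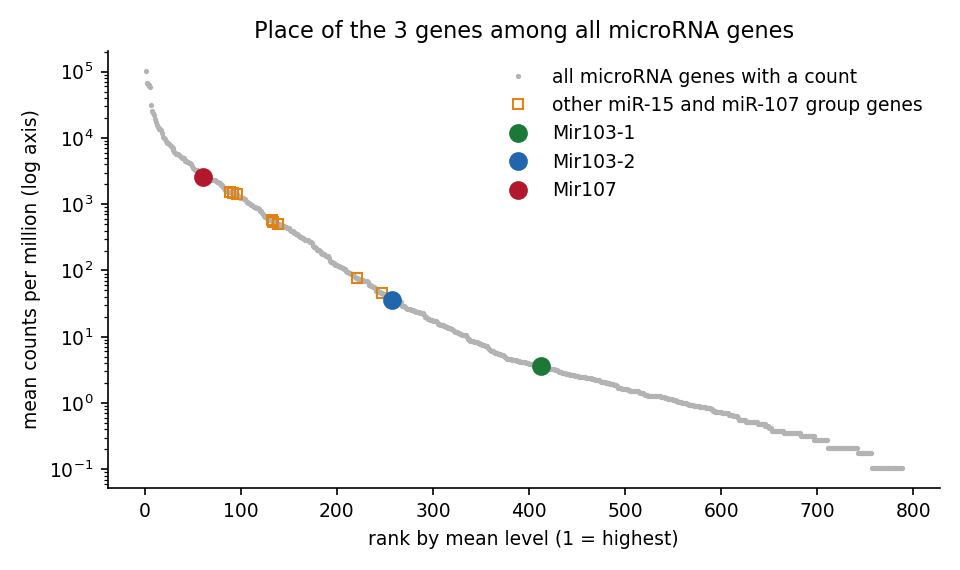
Mean level in CPM, on a log axis, against the rank of each microRNA gene with a count. Coloured points are the 3 genes and open squares the other detected genes of the miR-15 and miR-107 group. Mir107 at rank 61 lies above all open squares, and Mir103-2 at rank 257 and Mir103-1 at rank 412 lie below them.

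The counts of the Mir103 genes were set beside those of other pairs of genes that share a mature strand made at 2 loci. Full-length reads of a shared strand match both loci and are not in these counts. The sums and folds below therefore cover only reads given to a single gene. They measure neither the level of a shared strand nor the part of it made at each locus. In RefSeq 19 mature strands were made at exactly 2 loci whose other strands differ, with 20 or more counts for the pair. The Mir103 pair summed to 39.8 CPM and was number 15 of 19, against a median of 342 CPM. Its higher gene exceeded its lower gene by 10.1 times, against a median of 5.14, and 13 of the 19 pairs had a smaller fold. The log2 ratios of Mir103-2 and Mir103-1 differed by 0.47, beside a median difference of 0.42 over 18 pairs with counts in every library. Both genes were over 2-fold higher in replicate 2 in 2 of the 18 pairs, the Mir103 pair and the Mir138 pair. The counting interval of Mir103-1, 0.31 to 2.97 on the log2 scale, reaches below 2-fold. Of all 450 single genes 10.7% were over 2-fold higher, and the ratios of the Mir103 genes were known when they were chosen. Since both genes of a pair were read from the same 2 libraries, these values describe these libraries only.

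Genes nearest to each member were found by Euclidean distance over log2(CPM + 1) of the 2 libraries, which compares both level and ratio, among genes with 10 counts or more in each library. With 2 libraries no correlation was computed. Nearest to Mir107 were Mir543 at a distance of 0.59, Mir138-2 at 0.77 and Mir219a-2 at 0.83. Mir543 stood at 3713 CPM in replicate 2 and 616 CPM in replicate 1, beside 4181 and 911 CPM for Mir107. Mir103-2 was nearest to Mir193a (0.56), Mir29b-2 (0.67) and Gm23935 (0.69). Mir103-1 was nearest to Mir6968 (0.20), Gm24197 (0.21) and Mir124a-1 (0.25), which had 14 to 18 counts in replicate 2 and 10 or 11 in replicate 1. Mir7056, outside this search with 9 counts in replicate 1, had exactly the counts of Mir103-1 in both libraries.

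Neighbours in rank are close in mean level by construction, so only their spread is compared here. By mean level Mir107, with an SD of 2312 CPM, stood between Mir485 at 2621 ± 472 CPM and Mir17 at 2543 ± 185 CPM (SD, n = 2 each). Mir103-2, with an SD of 30.1 CPM, stood between Mir1968 at 36.6 ± 4.27 CPM and Mir670 at 36.1 ± 8.92 CPM. Mir103-1 followed Gm24197 at 3.61 ± 1.84 CPM and shared its place with Mir7056. Mir107 and Mir103-2 thus each stood between genes whose libraries differed less than their own. The ratios of both were known when they were chosen.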

How the data were processed

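The authors deposited raw read counts per microRNA gene, 1 table per library, on assembly mm10 with GENCODE M21 per the accompanying file descriptions. The aligner and counter are not stated. The 3 count columns, unlabelled in the tables, were read as unstranded and 1 for each strand. The column with the larger total was used as sense, and its unassigned, unmapped and multi-mapping lines stayed out of library sizes. These lines and the gene counts sum to 7838361 reads in replicate 2 and 13195465 in replicate 1, of which 36.4% and 36.1% were assigned to genes and 37.1% and 40.8% were multi-mapping. CPM and ratios were computed here, with TMM scaling by edgeR 4.0.16 in R 4.3.3. The scaling was tested on simulated counts with Poisson error and known changes in 200 genes. That test did not model further spread between libraries. Intervals are exact at 95% (Poisson, Clopper-Pearson) from scipy 1.17.1.

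Of 2202 genes 968 matched a RefSeq hairpin of GRCm38.p6 by symbol, all 3 members among them at identical coordinates. Hairpins were aligned with biopython 1.88. Named genes are the 3 members, the 3 nearest genes of each, its neighbours in rank and the miR-15 and miR-107 group. The comparison of strands made at 2 loci was chosen with results in view. The members and lists were chosen with earlier results of these data known. Alternatives were DESeq2 1.42.0 size factors, other library sizes, the unstranded column, other filters, thinning and leaving out a library. Alignments and signal tracks were not used here.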

Additional observations from a re-analysis of the deposited data

How the results depend on the processing

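All 3 genes kept a higher value in replicate 2 under every scaling, filter, strand column and thinning tried. The log2 ratio of Mir107 was 2.20 with total gene counts as library sizes, 2.21 with all reads and 2.25 with no filter before scaling, just outside its counting interval. Mir103-1 gave 3.05 when replicate 1 was thinned in 1 random draw, where 2 of its 9 counts were left. Genes past 2-fold numbered 99 in the reported setting, 269 of 788 with no filter and a pseudocount of 0.5, and 52 of 273 with a summed count of at least 200, where the number of genes compared differs by construction. Leaving out either library moved the mean level of Mir107 over 911 to 4181 CPM, of Mir103-2 over 14.9 to 57.5, of Mir103-1 over 1.89 to 5.26, the family share over 0.0928% to 0.424% and the share of Mir107 within the family over 98.2% to 98.5%. The unstranded column held the same counts for the 3 genes, with 0 on the opposite strand, and its smaller total gave levels of 2718, 38.6 and 3.82 CPM for Mir107, Mir103-2 and Mir103-1. No paired analysis was possible because there is 1 group. Depth limits Mir103-1 most, with 15 and 9 counts.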

Other observations

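The minimum free energy of the predicted fold, computed with RNAfold 2.7.2 from the RefSeq hairpin, was -41.2 kcal/mol for Mir107, -31.8 kcal/mol for Mir103-2 and -35.8 kcal/mol for Mir103-1. The fold paired 72 of 87 bases in Mir107 and 66 of 86 in each Mir103 gene. These are predictions from sequence, and their relation to the levels was not tested.

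Of the microRNA genes matched to RefSeq mature strands, 38 of the 57 that share 1 strand with another locus and keep the other for themselves, as Mir103-1 and Mir103-2 do, had at least 10 counts in both libraries (66.7%). The same held for 322 of 924 genes that share no strand (34.8%), Mir107 among them, and for 6 of 37 genes that share every strand (16.2%). Of all 2202 genes, matched or not, 409 had such counts. These classes also differ in which microRNAs they hold, so the shares are given as counts only.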
